A study of Mus musculus with 6 samples.

Results

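The genes for liver-type plasma proteins and apolipoproteins are 54 genes named in a list, and 52 of them could be matched by symbol to the 18512 entries of the mouse count table. The list was drawn up with the loss of these genes from treated cells already known, so their changes against DMSO are described here and carry no test. Of the 52 genes, 31 averaged at least 20 normalized counts over the 6 libraries and entered the model with 13353 entries in all, and 8 of these 31 reached that mean through the DMSO libraries alone. The listed genes were C5, which the table carries under its mouse symbol Hc and which is counted apart, C8b, which was not matched, and the 52 genes described below. Tff3 encodes a trefoil peptide of mucosal surfaces and is not a plasma protein of liver origin, although it stood in the list.

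Most proteins of blood plasma are made by hepatocytes, which secrete carriers such as albumin, the proteins of lipoprotein particles, fibrinogen, clotting factors, protease inhibitors and complement. Their genes are held active in hepatocytes by a small set of transcription factors, among them HNF1, HNF4, FOXA and C/EBP proteins. Some of these plasma proteins are also made by other epithelia and by macrophages, which are known sources of complement C3, apolipoprotein E and clotting factors VII and X.

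NMuMG is an epithelial cell line from normal mouse mammary gland that undergoes an epithelial to mesenchymal transition when given TGF-β. The cells, kept without serum for 4 h, were given DMSO as the vehicle, TGF-β (5 ng/ml), or the same dose of TGF-β together with 50 uM 2APB. The paper describes 2APB as blocking store-operated calcium entry through the channels ORAI1 and ORAI2, and reports that it raises calcium influx through ORAI3. The exposure is 24 h in the paper's results, while its methods place 2APB 24 h before TGF-β, and no group received 2APB alone. Each group had 2 replicates, polyadenylated RNA was sequenced in 6 libraries, and 71840570 to 79473182 counts per library were assigned to genes, all of them even numbers. All groups are 1 cell line, and a p-value then measures the spread between these cultures. Of 19 mammary epithelium markers, 15 were matched, 6 averaged at least 20 normalized counts in DMSO and 2 had no count there. Krt8, a keratin of simple epithelia, had 257088 and 226934 counts in DMSO, while the epithelial marker Epcam had 130 and 158. The basal keratins Krt5 and Krt14 had at most 4 counts in any library. Replicate 2 of TGF-β+2APB stood apart from the others by its leukocyte marker genes, which is described with the genes that moved with it.

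The sequences before 7 of the transcription start sites are shown because the genes concerned span the range of what remained after treatment. Alb, Afp, Fgb and Serpina1a hold a match to the site of HNF1, while Fgg, Apob and Pros1 hold none. The windows are the 250 bases before the RefSeq start on GRCm38, 5′ to 3′ on the strand of the gene, at chr5:90460620-90460869 (plus strand) for Alb, chr5:90490464-90490713 (plus) for Afp, chr3:83049864-83050113 (minus) for Fgb, chr12:103863620-103863869 (minus) for Serpina1a, chr3:83007474-83007723 (plus) for Fgg, chr12:7977427-7977676 (plus) for Apob and chr16:62854057-62854306 (plus) for Pros1. Capitals mark the match to the HNF1 site, which is the core GTTAAT, any 1 base and the reverse complement of the core, with up to 2 mismatches on either strand, or in Serpina1a the core alone.
Alb: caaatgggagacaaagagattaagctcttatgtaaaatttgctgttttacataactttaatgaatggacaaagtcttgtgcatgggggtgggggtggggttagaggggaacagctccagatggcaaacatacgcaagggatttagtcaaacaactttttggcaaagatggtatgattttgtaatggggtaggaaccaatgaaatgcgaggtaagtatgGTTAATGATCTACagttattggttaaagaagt
Afp: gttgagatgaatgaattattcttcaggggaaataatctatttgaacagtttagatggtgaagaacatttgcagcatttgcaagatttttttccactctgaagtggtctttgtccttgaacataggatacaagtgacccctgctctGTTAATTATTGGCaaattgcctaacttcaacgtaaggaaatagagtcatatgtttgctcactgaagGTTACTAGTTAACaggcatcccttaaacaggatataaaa
Fgb: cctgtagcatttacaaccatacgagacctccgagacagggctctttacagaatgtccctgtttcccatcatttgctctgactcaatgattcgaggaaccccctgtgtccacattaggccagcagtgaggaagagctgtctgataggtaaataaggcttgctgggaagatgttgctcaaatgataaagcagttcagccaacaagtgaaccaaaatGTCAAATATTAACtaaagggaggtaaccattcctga
Serpina1a: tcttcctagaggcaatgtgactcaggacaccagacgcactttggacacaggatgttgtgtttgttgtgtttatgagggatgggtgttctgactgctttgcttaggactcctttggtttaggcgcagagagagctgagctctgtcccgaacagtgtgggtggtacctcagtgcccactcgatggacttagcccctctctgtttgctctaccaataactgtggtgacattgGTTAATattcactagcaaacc
Fgg: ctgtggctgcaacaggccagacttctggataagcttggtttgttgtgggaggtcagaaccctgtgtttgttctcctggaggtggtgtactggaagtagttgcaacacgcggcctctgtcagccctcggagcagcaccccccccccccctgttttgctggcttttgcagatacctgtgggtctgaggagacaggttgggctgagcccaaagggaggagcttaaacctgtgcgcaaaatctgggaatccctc
Apob: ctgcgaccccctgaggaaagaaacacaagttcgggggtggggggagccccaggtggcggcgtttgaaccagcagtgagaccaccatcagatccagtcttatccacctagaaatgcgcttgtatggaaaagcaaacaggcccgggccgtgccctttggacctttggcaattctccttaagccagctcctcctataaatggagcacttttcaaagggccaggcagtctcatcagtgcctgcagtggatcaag
Pros1: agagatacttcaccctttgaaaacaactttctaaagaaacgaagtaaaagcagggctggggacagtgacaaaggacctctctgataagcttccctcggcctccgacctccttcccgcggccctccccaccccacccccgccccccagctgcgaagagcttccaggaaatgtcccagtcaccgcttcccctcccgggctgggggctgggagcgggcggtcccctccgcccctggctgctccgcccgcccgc
In Alb the match begins 32 bases before the start, in Fgb 36 bases and in Afp 105 and 39 bases, and the core of Serpina1a begins 21 bases before the start.

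Windows from 250 bases before to 50 bases after the start were available for 39 of the 52 genes and for 21 of the 31 tested genes, and each motif was searched on both strands. Some genes have more than 1 start, and a gene was counted when any of its windows held the motif. The HNF1 core GTTAAT was found for 7 of these 21 genes (33.3%), against 8.24% of the 27025 genes with a window. They were Afp, Alb, Apoe, Fga, Fgb, Serpina1a and Serpina1b. The longer HNF1 site, which is built from the core but was allowed mismatches, stood in 4 of 21 (19.0%) against 1.58%. These genes, Afp, Alb, Fga and Fgb, were also among those with the core, so the 2 counts overlap. The C/EBP motif TTGCNNAA stood in 11 of 21 (52.4%) against 12.2%, and the FOXA motif, TGTTTAC or TATTTAC, in 4 of 21 (19.0%) against 7.35%. The E-box CAGGTG, which SNAI proteins bind, stood in 3 of 21 (14.3%) against 22.6%, in Apoa1, Apob and Apoe. The letters CAAAGTCCA of the HNF4 core and the SMAD palindrome GTCTAGAC were in none of the 21, against 0.555% and 0.248% of all genes. Matches did not sort the genes by what remained. Apoa1 had no HNF1 match and kept 0.139% of its DMSO level under TGF-β, and C3 had none and kept 3.99%. Apoe had the core, though not before all of its starts, and kept 32.0%. A match is a string of letters in these windows and not a measured binding site, and the 2 near-identical Serpina1 paralogs share most of theirs.

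In DMSO the plasma protein genes ran from among the most abundant messages of the cells to no count at all. Their counts made up 1.24% and 1.23% of the DMSO libraries. Per length of exon, 3 of them were among the 100 highest of 17551 entries with a known length, 11 among the 500 highest and 13 among the 1000 highest. Rbp4, the plasma carrier of retinol, ranked 25th with 763 and 724 RPKM in the DMSO libraries, that is, counts scaled by exon length and by library size after TMM. C3, the central complement protein, ranked 44th with 465 and 474 on that scale, and Apob, the structural protein of chylomicrons and very low density lipoprotein, ranked 77th with 346 and 342. The libraries of these 3 genes did not overlap, and their order held in both. Cfb, the complement protease of the alternative pathway, ranked 105th, followed by the heme carrier Hpx at 160, the thyroxine and retinol carrier Ttr at 182, Serpina1b at 183, the iron carrier Trf at 193, albumin, Alb, at 199 and Serpina1a at 268. Ttr, Serpina1b, Trf and Alb, at 161 to 190 RPKM over both libraries, overlapped and had no order among them.

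The DMSO libraries held only a part of the hepatocyte genes looked at. Of 30 enzymes and transporters of hepatocytes, 25 were matched, 12 averaged at least 20 normalized counts in DMSO and 11 could be tested. The urea cycle enzymes Cps1 and Otc had 14 to 36 counts per DMSO library, and Tat, the tyrosine aminotransferase, had 4 and 10. Of 13 markers of intestinal epithelium, 11 were matched and 9 averaged at least 20 normalized counts in DMSO. Among them Vil1 had 35998 and 31826 counts. Which cell type the DMSO profile is closest to was not tested. Among the plasma protein genes themselves 2, Serpina6 and C8a, had no count in DMSO, and 34 of the 52 averaged at least 20 normalized counts there, against 21 with TGF-β and 22 with TGF-β+2APB.

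**Figure D1:**
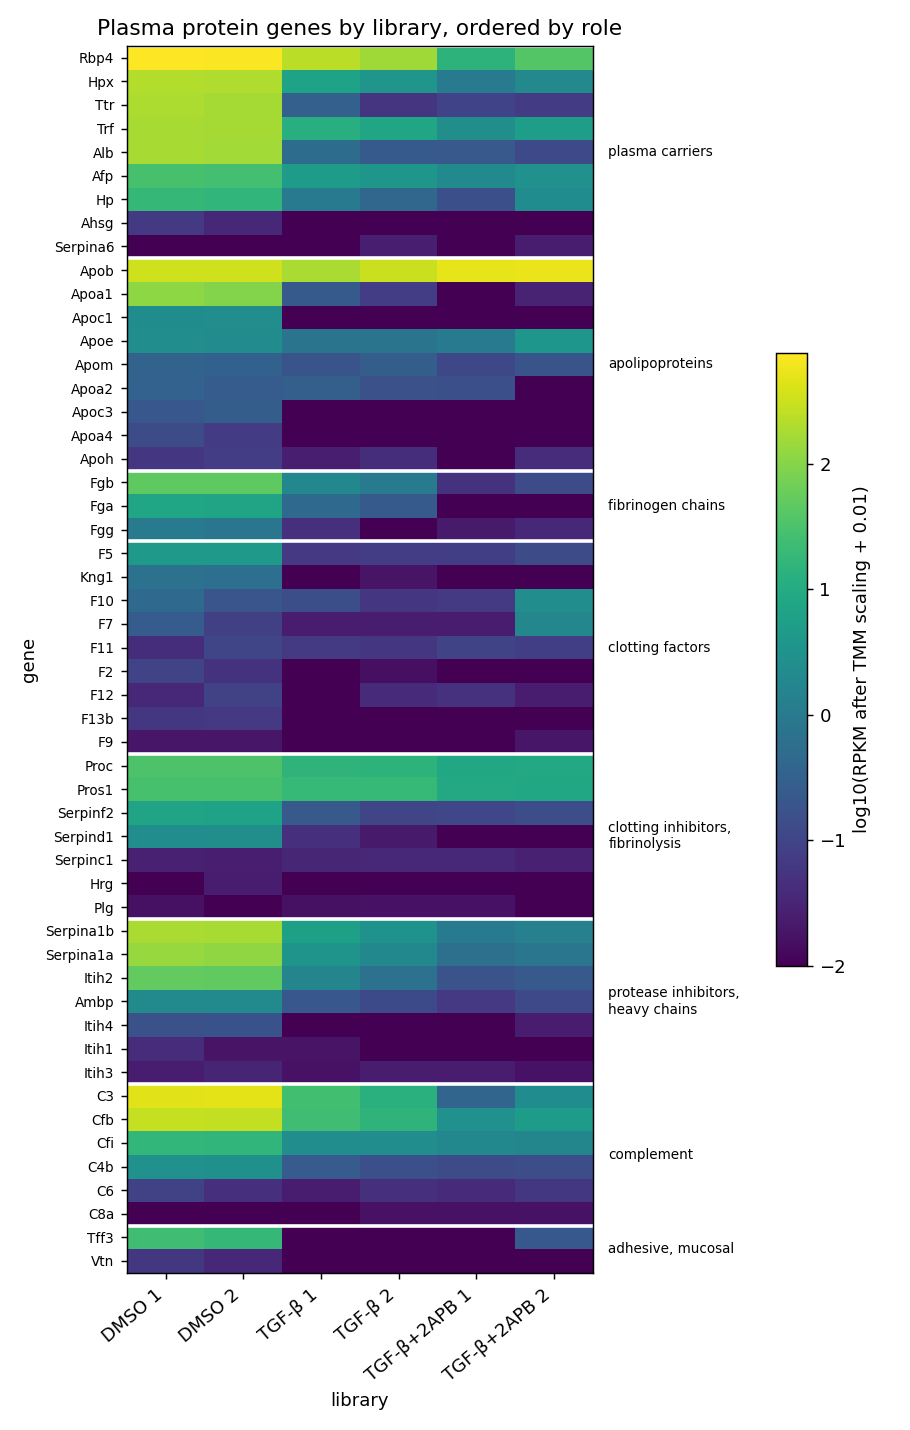
RPKM, as log10 after adding 0.01, for the 52 genes (rows, grouped by role) in each of the 6 libraries (columns). All 31 tested genes were lower in both TGF-β libraries than in DMSO, and 27 of them in both TGF-β+2APB libraries. The exceptions were Apob, which was highest in both TGF-β+2APB libraries, and F7, F10 and Apoe, which were highest in replicate 2 of TGF-β+2APB.

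With TGF-β, 27 of the 31 tested genes were lower than in DMSO at an edgeR FDR of 0.05 or less and none was higher, where 19.7% and 21.8% of all tested entries were (41.5% in either direction). With TGF-β+2APB the counts were again 27 lower and none higher, beside 27.2% and 25.6% of all entries (52.8% in either direction), and without replicate 2 of TGF-β+2APB they were 28 lower of 30 tested. These counts leave out C5, whose row Hc was tested and was called higher in both comparisons, so that with it 27 genes were lower and 1 was higher of 32 with either treatment, at medians of -4.62 and -5.71 on the log2 scale. By edgeR, Apob, Apoe, F7 and F10 were called with neither treatment. DESeq2 gave 27 lower and 1 higher of the 31 with TGF-β+2APB. All 31 genes had both TGF-β libraries under both DMSO libraries (36.5% of all entries did), and 27 had both TGF-β+2APB libraries under them (43.8%), while Apob had both above (42.3%). Since the genes were listed for this loss, these counts only describe the list. The median tested gene kept 3.99% of its DMSO level with TGF-β and 1.69% with TGF-β+2APB. The median log2 fold change was -4.65 with TGF-β and -5.88 with TGF-β+2APB, or -5.54 where genes without a count were set at their bound, while the medians over all tested entries were -0.01 and 0.00. In bulk RNA, fewer cells that make a message and less message per cell cannot be told apart.

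What remained ranged widely among the genes. With TGF-β, 23 of the 31 tested genes kept under 10% of the DMSO level and 7 kept under 1%, 6 kept 10% to 50%, and 2, Apob and Pros1, kept more than 50%. With TGF-β+2APB, 24 kept under 10% and 14 kept under 1%. Apob dominated the sum. Its share of the library was 0.489% and 0.491% in DMSO, 0.257% and 0.438% under TGF-β and 0.676% and 0.762% under TGF-β+2APB. The other 51 genes together fell to 10.1% and 6.85% of their DMSO sum in the TGF-β libraries and to 1.60% and 2.69% in the TGF-β+2APB libraries. The TGF-β libraries differed in one direction, with 25 of 31 genes higher in replicate 1 than in replicate 2, as 59.5% of all tested entries were. In the TGF-β+2APB libraries 23 of 31 were higher in replicate 2, as 49.0% of all entries were.

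**Figure D2:**
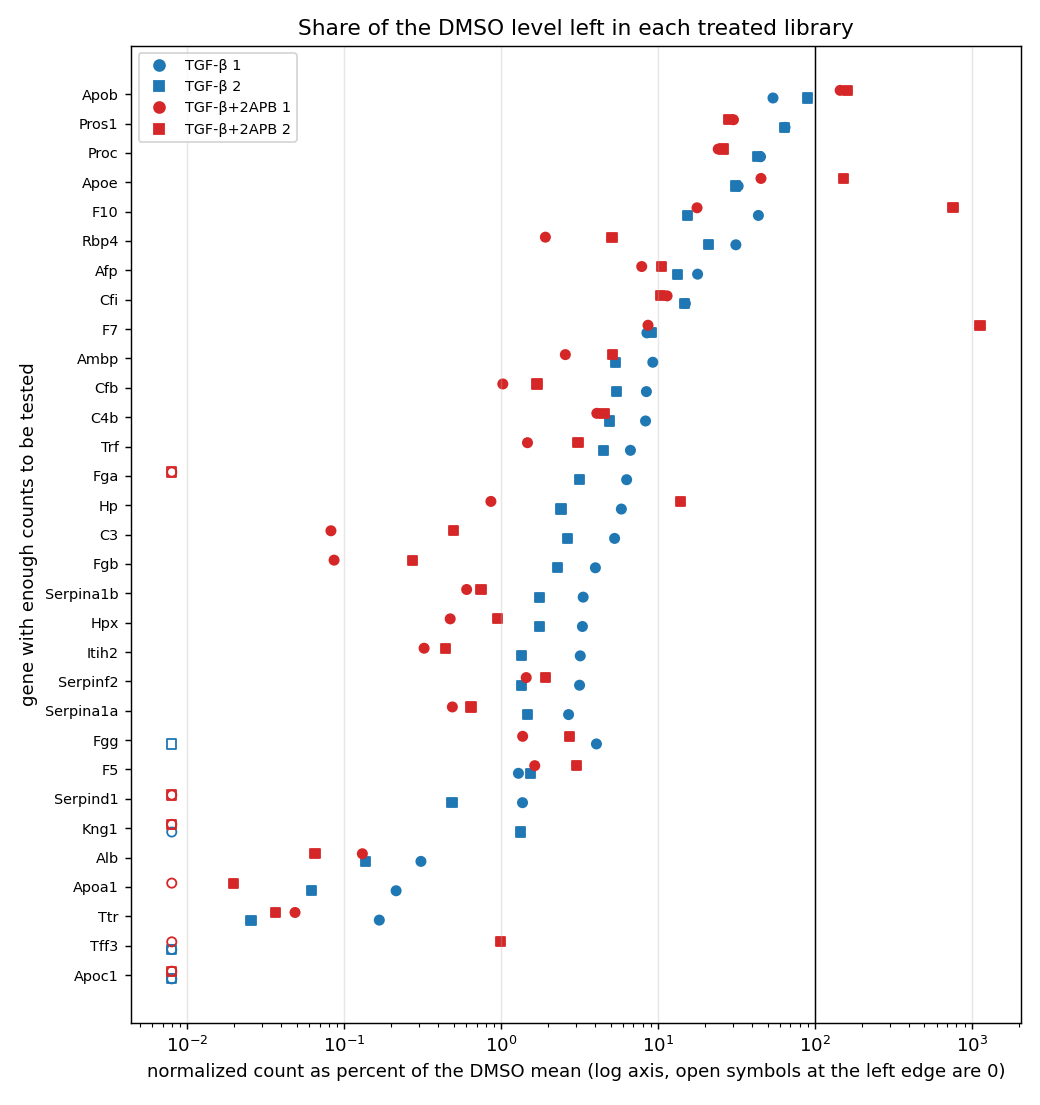
Normalized count of the 31 tested genes in each treated library as a percent of the DMSO mean, on a log axis, with circles for replicate 1 and squares for replicate 2 and open symbols at the left edge for libraries without a count. Most genes lie under 10% with TGF-β (blue), and Fga, Serpind1, Kng1 and Apoc1 have no count in either TGF-β+2APB library (red), while Apob lies at 54.2% and 89.9% with TGF-β and at 145% and 162% with TGF-β+2APB.

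The treated groups were then compared directly. The genes were chosen with the values of both treated groups known, so the calls and FDR values of this comparison describe the list and are no independent evidence about it. With 2APB added, 14 of the 31 tested genes were lower and 1 was higher at an edgeR FDR of 0.05 or less, beside 10.9% and 6.58% of all tested entries (17.5% in either direction). The lower genes were Pros1, Proc, Fgb, Fga, Cfb, Serpina1b, Rbp4, Serpina1a, Itih2, Cfi, C3, Hpx, Serpind1 and Afp, and the higher gene was Apob. Of these, Serpind1 reached the minimum mean through DMSO alone. Without replicate 2 of TGF-β+2APB 11 were lower and none was higher, of 30 tested. Without replicate 1 of that group 7 were lower and 4 higher. Without replicate 1 or 2 of DMSO, 8 and 7 were called, all lower. Without replicate 2 of TGF-β, 20 were lower and 1 was higher. Pros1, Proc, Fgb, Fga and Cfb kept their call in every setting that tested them, with FDR values up to 0.0375. The median log2 fold change of the 31 genes was -1.14, or -0.80 with genes without a count at their bound, against 0.00 over all entries, and it was -0.54 without replicate 1 of TGF-β. Both TGF-β+2APB libraries lay under both TGF-β libraries in 19 genes (31.0% of all entries) and above them in 3 (27.0%).

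**Figure D3:**
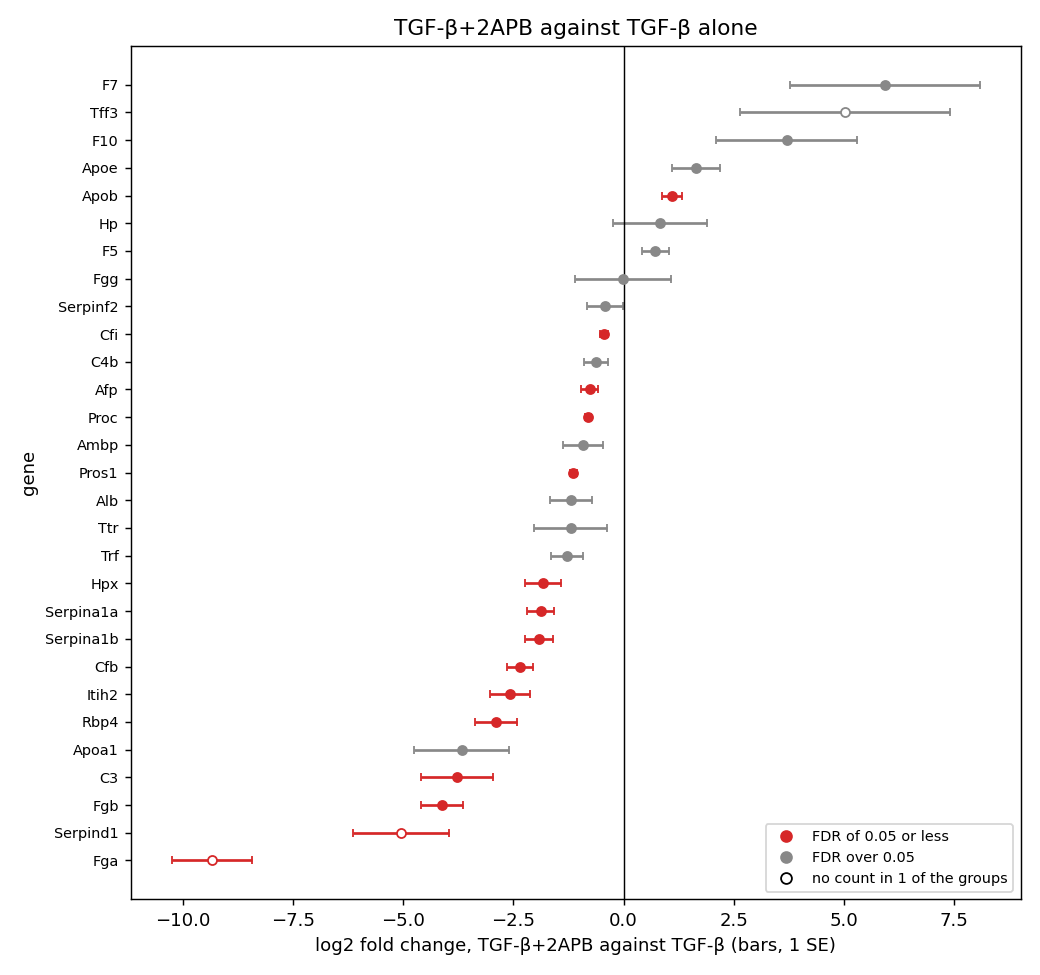
Fitted log2 fold change (points) with 1 SE (bars) of TGF-β+2APB against TGF-β for the 29 tested genes with more than 3 counts in at least 1 of the 4 libraries, with red for an FDR of 0.05 or less. Fga, Serpind1 and Tff3 (open symbols) had no count in 1 of the groups, so their fitted positions depend on the prior count. Of the red genes Apob alone lies above 0, and the bars of F7, Tff3 and F10 are the longest.

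Among the plasma carriers, 7 of 9 genes were tested and all 7 were lower than in DMSO with either treatment. Alb had 32124 and 27900 counts in the DMSO libraries, 96 and 40 under TGF-β and 40 and 20 under TGF-β+2APB. Ttr had 17502 and 14758 counts, then 28 and 4, then 8 and 6. The counts of the treated libraries lay far under those of DMSO in both genes. Between the treated groups those of Ttr crossed and those of Alb touched. After normalization the Alb libraries did not overlap, at 0.310% and 0.137% of DMSO under TGF-β and 0.131% and 0.0653% under TGF-β+2APB. Alb kept 0.224% of its DMSO level with TGF-β and 0.0982% with TGF-β+2APB, and Ttr kept 0.0968% and 0.0427%. The direct comparison of neither passed the test, with a log2 fold change of -1.19 ± 0.47 (SE, n = 2 per group) and an edgeR FDR of 0.144 for Alb.

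Afp, the fetal homologue of albumin and its neighbour on the chromosome, kept more. It had 7618 and 6678 counts in DMSO, 1324 and 930 under TGF-β and 574 and 768 under TGF-β+2APB, with no overlap between any of the groups. It kept 15.7% and 9.22%, and its log2 fold change between the treated groups was -0.77 ± 0.19 (SE, n = 2 per group) at an edgeR FDR of 0.0458, a call that was lost without replicate 1 or 2 of DMSO, replicate 1 of TGF-β, or either TGF-β+2APB library, where the FDR reached 0.179. Per length, Alb stood 6.07 and 6.01 times above Afp in the DMSO libraries and at 0.0374 to 0.104 times its level in the 4 treated libraries, so that the order of the pair was opposite there.

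Rbp4 fell in steps. Its counts were 79686 and 71936 in DMSO, 24630 and 15408 under TGF-β and 1482 and 3956 under TGF-β+2APB. The groups did not overlap, and the gene kept 26.2% of DMSO with TGF-β and 3.52% with TGF-β+2APB. Between the treated groups the log2 fold change was -2.90 ± 0.48 (SE, n = 2 per group) at an edgeR FDR of 0.0157, which rose to 0.0502 without replicate 2 of DMSO. The heme carrier Hpx had 24506 and 21822 counts, then 792 and 394, then 112 and 226, again without overlap, and its direct log2 fold change was -1.82 ± 0.41 at an FDR of 0.0353, reaching 0.111 when 1 library was left out (over 0.05 without DMSO 1, DMSO 2 or TGF-β+2APB 1). Trf had 45772 and 41508 counts, then 3020 and 1906, then 656 and 1382. It kept 5.60% and 2.29%, and its direct FDR was 0.0645. Hp, which binds free hemoglobin, had 2194 and 1904 counts in DMSO and 124 and 48 under TGF-β, while the TGF-β+2APB libraries held 18 and 290.

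The apolipoproteins, which coat lipoprotein particles, ranged from no count left to a level above DMSO. Apoa1, the main protein of high density lipoprotein, had 11010 and 8810 counts in DMSO, 22 and 6 under TGF-β, and 0 and 2 under TGF-β+2APB. The last 2 counts give a ratio of 10100 to DMSO with a 95% exact counting interval of 2796 to 83410, which covers counting error only, and the direct FDR was 0.0711. Apoc1, a small exchangeable apolipoprotein, had 136 and 138 counts in DMSO and none in any treated library, at least 45.8-fold lower with TGF-β and at least 46.6-fold lower with TGF-β+2APB against a floor of 3 counts per library. Apoe, its neighbour, had 402 and 360 counts, then 128 and 116, then 176 and 596.

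Apob had 374996 and 352794 counts in DMSO, 203950 and 317362 under TGF-β and 537390 and 600670 under TGF-β+2APB. The TGF-β libraries lay under DMSO and the TGF-β+2APB libraries above it, and no groups overlapped. The fitted log2 change from DMSO was -0.47 ± 0.23 with TGF-β and 0.62 ± 0.23 with TGF-β+2APB (SE, n = 2 per group). Neither change from DMSO passed the test, at edgeR FDR values of 0.150 and 0.0656. Between the treated groups Apob was higher by 1.09 ± 0.23 on the log2 scale at an edgeR FDR of 0.0288. The FDR rose above 0.05, to at most 0.0837, without replicate 1 or 2 of DMSO or of TGF-β+2APB, with fold changes of 0.773 to 1.501 over all libraries left out. Mttp, the lipid transfer protein that loads Apob with lipid, had 744 and 722 counts, then 386 and 298, then 414 and 508, at a direct FDR of 0.140. It was chosen after its values were seen. The 5 other apolipoproteins, Apoa2, Apoa4, Apoc3, Apoh and Apom, had at most 28 counts in any library, and Apoa4 and Apoc3 had none in the 4 treated libraries.

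The 3 fibrinogen chains are joined in equal numbers in the clotting protein, and their genes lie side by side on chromosome 3, from Fgg at chr3:83007724-83015049 through Fga at chr3:83026076-83033627 to Fgb at chr3:83040141-83049863 on GRCm38. Fgb, the beta chain, had 14176 and 13080 counts in DMSO, 564 and 302 under TGF-β and 12 and 38 under TGF-β+2APB. Fga, the alpha chain, had 1762 and 1600 counts, then 110 and 52, then none. Fgg, the gamma chain, had only 158 and 128 counts in DMSO, then 6 and 0, then 2 and 4. Per length, Fgb stood 6.36 and 6.46 times above Fga and 49.3 and 56.1 times above Fgg in the DMSO libraries, so the messages of the 3 chains were far from equal.

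Fgb and Fga fell again when 2APB was added. The log2 fold change of Fgb was -4.12 ± 0.47 (SE, n = 2 per group) at an edgeR FDR of 0.00652. Fga was at least 27.2-fold lower than with TGF-β against the floor of 3 counts per library, at an FDR of 0.00712, and at least 571-fold lower than in DMSO. Over the libraries left out in turn the FDR reached 0.0282 for Fgb and 0.0284 for Fga. The Fgg libraries of the treated groups overlapped, at 0 to 6 counts, and no difference was detectable at this depth.

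**Figure D4:**
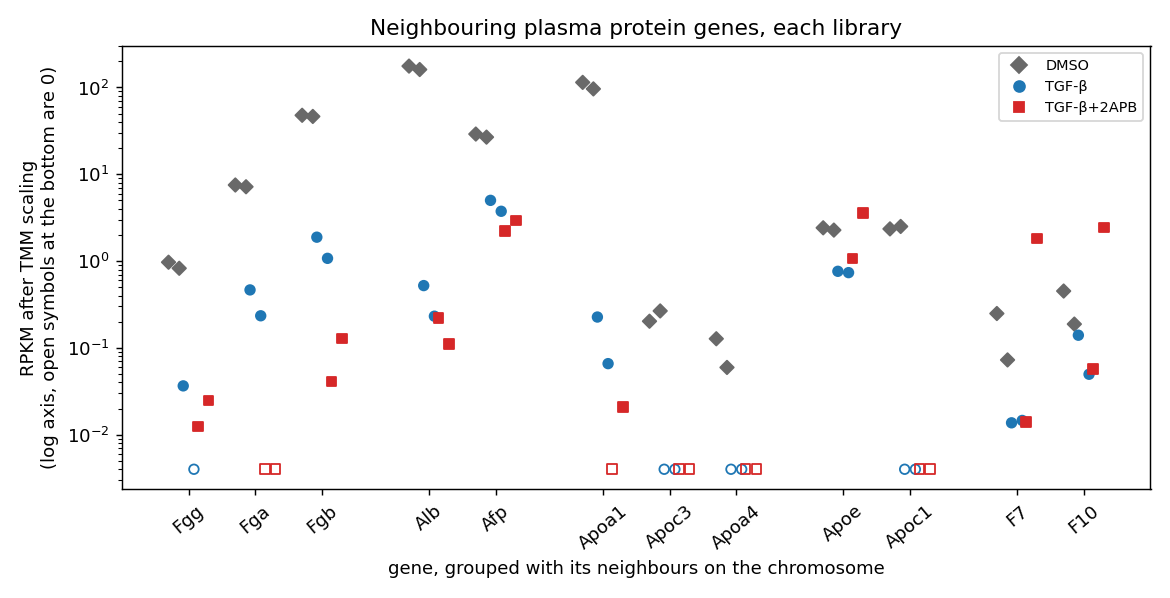
RPKM, on a log axis, of neighbouring genes in each of the 2 libraries of DMSO (diamonds), TGF-β (circles) and TGF-β+2APB (squares), with open symbols at the bottom for libraries without a count. Fgb, Fga and Fgg lie apart by level in DMSO, Alb lies above Afp in DMSO and under it in every treated library, Apoc1 has no count in any treated library while Apoe has, and F7 and F10 are highest in 1 TGF-β+2APB library.

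Other genes of the list also lay within 50 kb of each other. Apoa1, Apoc3 and Apoa4 follow one another on chromosome 9, and the level of Apoa1 in DMSO was 105 RPKM, against 0.235 for Apoc3 and 0.0935 for Apoa4. Apoc1 and Apoe are neighbours on chromosome 7 and stood at 2.43 and 2.35 on that scale in DMSO, where their libraries overlapped. With TGF-β Apoe kept 32.0% of its DMSO level and Apoc1 had no count. Apoc2, an activator of lipoprotein lipase in the same cluster and no gene of the list, kept 0.795% with TGF-β and 0.483% with TGF-β+2APB.

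Among the clotting factors, 4 of 9 genes were tested. F5, the cofactor of prothrombin activation, had 2530 and 2256 counts in DMSO, 32 and 36 under TGF-β and 40 and 74 under TGF-β+2APB. Kng1, the precursor of bradykinin, had 166 and 144 counts, then 0 and 2, then none, at least 52.6-fold lower with TGF-β+2APB than in DMSO. F7 and F10, proteases of the tissue factor pathway, were low in DMSO and are described with the leukocyte markers. F2, F9, F11, F12 and F13b did not reach the minimum, and F2, prothrombin, had 46 counts over both DMSO libraries and 2 over the 4 treated ones.

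Of the clotting inhibitors, Pros1 and Proc kept much of their messages. Pros1, protein S, had 9206 and 8628 counts in DMSO, 5962 and 5558 under TGF-β and 2752 and 2578 under TGF-β+2APB. Proc, protein C, for which protein S is the cofactor, had 6422 and 6018 counts, then 2902 and 2592, then 1536 and 1668. The groups did not overlap in either gene, and the libraries of a group lay close together. Pros1 kept 64.4% of DMSO with TGF-β and 29.3% with TGF-β+2APB, and Proc kept 44.0% and 25.3%. The direct log2 fold change was -1.14 ± 0.07 (SE, n = 2 per group) for Pros1, at the lowest edgeR FDR of the list, 0.00292, and -0.80 ± 0.07 at 0.00418 for Proc.

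Serpind1, heparin cofactor II, an inhibitor of thrombin, had 426 and 418 counts in DMSO, 6 and 2 under TGF-β and none with TGF-β+2APB, where it was at least 143-fold lower than in DMSO. Between the treated groups it was at least 1.34-fold lower, at an edgeR FDR of 0.0428 that passed in 1 of the 6 fits with a library left out, the fit without replicate 2 of TGF-β. Serpinf2, which inhibits plasmin, kept 2.26% and 1.69% of DMSO. Serpinc1, antithrombin, with 22 to 32 counts summed over the libraries of a group, Plg, plasminogen, and Hrg, a histidine-rich plasma protein, did not reach the minimum.

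Serpina1b and Serpina1a fell steeply, without overlap between groups. Serpina1b had 34988 and 30650 counts in DMSO, 1134 and 560 under TGF-β and 202 and 250 under TGF-β+2APB, and Serpina1a had 19054 and 16226, then 492 and 254, then 88 and 116. Both encode forms of alpha-1-antitrypsin, the inhibitor of neutrophil elastase, and are near-identical copies among which the authors' counting could split or drop reads, so their separate values are uncertain. Summed over the 5 paralogs Serpina1a to Serpina1e, the counts were 61958 and 53856, then 1892 and 920, then 362 and 444. The direct log2 fold change was -1.92 ± 0.32 for Serpina1b and -1.88 ± 0.32 for Serpina1a (SE, n = 2 per group), with edgeR FDR values of 0.0155 and 0.0162 that rose to 0.0711 and 0.0727 without replicate 1 of TGF-β+2APB.

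Itih2 encodes a heavy chain that is bound to hyaluronan, and Ambp encodes bikunin, the inhibitor to which the chain is joined. Itih2 had 13460 and 12016 counts in DMSO, 422 and 168 under TGF-β and 42 and 58 under TGF-β+2APB, while Ambp had 238 and 220, then 22 and 12, then 6 and 12. Between the treated groups the log2 fold change of Itih2 was -2.57 ± 0.45 (SE, n = 2 per group) at an edgeR FDR of 0.0181, which reached 0.0818 and lay over 0.05 without replicate 1 or 2 of DMSO or of TGF-β+2APB. The heavy chains Itih1, Itih3 and Itih4, which lie together on chromosome 14, had at most 44 counts in any library. Itih4 had 88 counts over the DMSO libraries, none with TGF-β and 4 with TGF-β+2APB.

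Complement genes of the early, alternative pathway were abundant and those of the lytic pathway were not. C3 had 185876 and 180182 counts in DMSO, 10044 and 4740 under TGF-β and 154 and 930 under TGF-β+2APB. Cfb had 63092 and 57356 counts, then 5266 and 3182, then 630 and 1044. No groups overlapped in either gene. C3 kept 3.99% of DMSO with TGF-β and 0.290% with TGF-β+2APB, and Cfb kept 6.95% and 1.36%.

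Against TGF-β alone, the log2 fold change of C3 was -3.78 ± 0.81 (SE, n = 2 per group) at an edgeR FDR of 0.0309, which rose to 0.0818 at most and over 0.05 without either DMSO library. Without replicate 2 of TGF-β+2APB, in which C3 was 6.02 times higher than in replicate 1, the fall was larger, at -5.60. Cfb was lower by -2.35 ± 0.30 at an FDR of 0.0083. Cfi, the protease that inactivates C3b, had 2894 and 2732 counts, then 436 and 402, then 328 and 298, and kept 14.9% and 10.9%. Its direct difference was small, -0.44 ± 0.09 at an FDR of 0.0272, and ran from -0.548 to -0.377 with a library left out. The call was lost with the replicate block and with only the 4 libraries compared.

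C4b, of the classical pathway, had 1322 and 1180 counts, then 108 and 60, then 52 and 58, and shares sequence with its near-identical copy C4a, so that its value is uncertain. C6 and C8a, of the membrane attack complex, had at most 22 counts in any library. The row Hc, complement C5, named here after its values were seen, moved the other way, from 2 and 2 counts in DMSO to 20 and 32 under TGF-β and 50 and 64 under TGF-β+2APB. Its log2 fold change from DMSO was 3.63 ± 0.52 with TGF-β and 4.72 ± 0.52 with TGF-β+2APB (SE, n = 2 per group), and its edgeR FDR values were 0.00346 and 0.00083. Tff3 had 914 and 662 counts in DMSO, none with TGF-β, at least 262-fold lower, and 0 and 8 under TGF-β+2APB. Vtn, the adhesive plasma protein vitronectin, had 12 counts over both DMSO libraries and none in treated ones, and the carriers Ahsg, fetuin-A, and Serpina6, which binds corticosteroids, had at most 10.

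Replicate 2 of TGF-β+2APB held genes that were more than 4-fold apart from replicate 1 with at least 50 counts in the higher library. They were F7, F10, Hp and C3, at 131, 42.7, 16.1 and 6.02 times, and no such gene was found in the DMSO or TGF-β pairs. Over all tested entries 2.01% were more than 4-fold apart in this pair, against 0.142% for DMSO and 0.270% for TGF-β. F7 had 36 and 10 counts in DMSO, 2 and 2 under TGF-β and 2 and 262 under TGF-β+2APB. F10 had 96 and 38, then 30 and 10, then 12 and 514. In both genes the high value was that of 1 library, and the FDR of the direct comparison was 0.119 for F7 and 0.173 for F10.

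Leukocyte marker genes were high in the same library. Of 10 listed markers 9 were matched, and in TGF-β+2APB all 9 were higher in replicate 2. Lyz2, the lysozyme of macrophages and granulocytes, had 3654 and 1080 counts in DMSO, 810 and 182 under TGF-β and 158 and 29060 under TGF-β+2APB, and Ptprc, the common leukocyte antigen CD45, had 224 and 138, 102 and 68, and 36 and 752. The summed normalized counts of the 9 markers were 21369 and 17383 in DMSO, 13780 and 9583 under TGF-β and 3940 and 38499 under TGF-β+2APB. Without Cd14, which made up most of the sum in the other libraries, they were 4576 and 1812, 1231 and 484, and 531 and 33044. The T cell marker Cd3e had at most 2 counts in any library.

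Smaller differences were found within the other pairs. Lyz2 was 3.22 times higher in replicate 1 of DMSO than in replicate 2, F7 was 3.42 times higher and F10 2.40 times, and in TGF-β Lyz2 was 4.18 times and F10 2.82 times higher in replicate 1. The part of leukocyte RNA in the values of F7, F10, Hp, Apoe and C3 was not tested. Without replicate 2 of TGF-β+2APB, the direct log2 fold change of Hp was -2.27 in place of 0.83 and that of F10 was -0.75 in place of 3.70, neither of them past the test, and F7 did not reach the minimum mean. The 3 genes F7, F10 and Apoe were also the only tested ones besides Apob for which that group's mean lay near or above DMSO, at 570%, 388% and 99.4%, and in replicate 1 alone they stood at 8.66%, 17.8% and 45.4%.

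**Figure D5:**
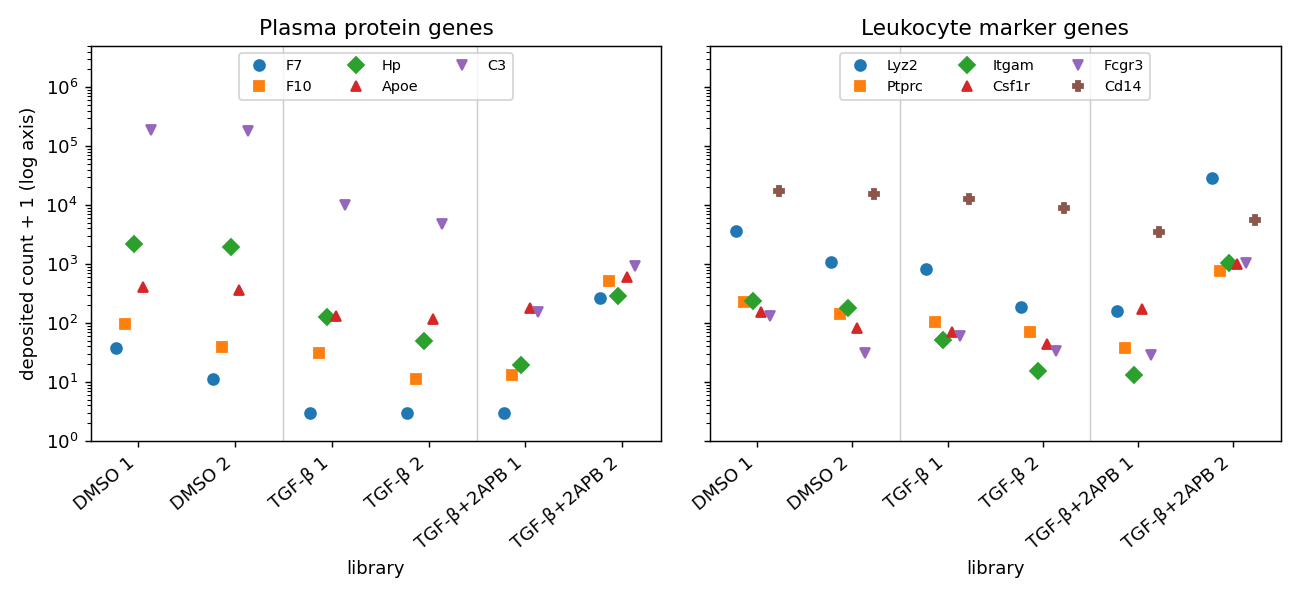
Deposited counts plus 1, on a log axis, of 5 plasma protein genes (left) and 6 leukocyte markers (right) in each of the 6 libraries. F7 and F10 and the markers Lyz2, Ptprc, Itgam, Csf1r and Fcgr3 are highest in replicate 2 of TGF-β+2APB, while Cd14 and C3 are highest in DMSO.

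A longer list of other plasma protein genes, not chosen here for how they moved but made with the results of these data known, did not fall as evenly. Of 70 such genes 63 were matched and 44 tested, of which 21 were lower and 8 higher with TGF-β, 21 and 9 under TGF-β+2APB, and 11 and 5 in the direct comparison. Over all tested entries 19.7% were lower and 21.8% higher with TGF-β, 27.2% and 25.6% with TGF-β+2APB, and 10.9% and 6.58% in the direct comparison. The median log2 fold changes of these 44 genes were -1.67, -0.72 and -0.12. Among examples chosen after their values were seen, Gc, the vitamin D carrier, kept 26.1% and 6.02% of DMSO, and Clu, clusterin, kept 97.1% and 94.5%.

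Of 17 liver-enriched transcription factors, 15 were tested, and 11 were lower with TGF-β, 12 with TGF-β+2APB and 4 in the direct comparison, with none higher in any, beside 19.7%, 27.2% and 10.9% lower over all tested entries. Hnf4a had 43312 and 40626 counts in DMSO, 19628 and 13558 under TGF-β and 8574 and 11586 under TGF-β+2APB, so 39.3% and 23.6% of its DMSO level remained. Foxa3 kept 12.1% and 4.12%. The median log2 fold changes of these factors were -0.91 with TGF-β and -1.97 with TGF-β+2APB, beside -4.65 and -5.88 for the plasma protein genes. Of the 11 tested hepatocyte enzymes and transporters, 6 were lower and 1 higher with TGF-β, 7 and 1 under TGF-β+2APB, and 5 and 0 in the direct comparison, to be read beside the same shares over all entries.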

How the data were processed

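Total RNA of NMuMG cells was enriched for polyadenylated RNA and sequenced as single-end reads. The authors aligned the reads with TopHat2 2.0.13 after FastQC 0.11.2, counted them per gene with featureCounts and deposited raw counts for 18512 entries, without scaling between libraries. The submitters' processing notes name mm10 and DESeq2 1.6.1, while the paper's methods name a human genome. The gene annotation, strand setting and treatment of reads with several alignments were not given in the sources used here. Total counts ran from 71840570 to 79473182, and every value was even, so halved counts were tried.

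From these counts edgeR 4.0.16 (R 4.3.3, limma 3.58.1) computed TMM factors, and the 13353 entries whose mean reached 20 normalized counts were fitted in 1 quasi-likelihood model of 3 groups without covariates. Benjamini-Hochberg FDR values are over all these entries, 0.05 or less was called, and SE is the log2 fold change over the square root of F. The common biological coefficient of variation was 17.4%. In simulated data for TGF-β+2APB against TGF-β, 168 of 200 changed genes were called, and 10 unchanged genes, of 13353 genes in all. Levels per length used GENCODE exon lengths on GRCm38, matched by symbol for 17551 entries (94.81%). Promoter windows came from RefSeq on GRCm38. Lower bounds use a floor of 3 counts per library, and 95% intervals are exact, and both cover only counting error, as sequenced reads were not collapsed to molecules.

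The genes and all lists were chosen with earlier results of these data known. All listed genes are named. Values per library are given for the 10 highest per length in DMSO and for tested genes with no count in a treated group. They are also given for genes called in the direct comparison and for those with a positive fitted change from DMSO. Genes more than 4-fold apart within a group are given in the same way, and any others were chosen after their values were seen. Alternatives were DESeq2 1.42.0, RLE and library size scaling, no filter, at least 10 counts in every library, halved counts, the replicate block, the 4 libraries compared alone, an FDR of 0.01 and each library left out. Tables and plots were made with Python 3.11.15, pandas 2.3.3, scipy 1.17.1 and matplotlib 3.10.9. The 25 entries whose names had become dates were kept in the fits and not named. Values of some genes in the comparison lists are not reported here.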

Additional observations from a re-analysis of the deposited data

How the results depend on the processing

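Against DMSO, the number of genes called stayed between 18 and 29 under TGF-β and between 18 and 31 under TGF-β+2APB over all alternatives, the lowest with at least 10 counts in every library, which left 22 genes to test. With TGF-β+2APB 1 gene was higher by DESeq2, with the 4 libraries compared alone, and without either TGF-β library, and 3 were without replicate 1 of TGF-β+2APB. Counting C5 by its row Hc, added after the data were seen, gave 28, 28 and 15 genes in the 3 comparisons, at medians of -4.62, -5.71 and -1.03. In the direct comparison, 15 genes were called, and 7 when only the 4 libraries compared were fitted, 5 at an FDR of 0.01, 20 by DESeq2 (16 lower and 4 higher) and 7 to 21 with a library left out, the lowest without replicate 2 of DMSO (8 without replicate 1) and the highest without replicate 2 of TGF-β. The cause was not tested. All 15 kept their direction in every alternative, and 5 of them kept their call. The median log2 fold change of TGF-β+2APB against DMSO was -5.09 without a filter and -5.12 with at least 10 counts in every library, and -6.70 to -5.42 with a library left out. That against TGF-β was -0.52 without a filter and -0.97 with at least 10 counts, and -1.30 to -0.54 with a library left out.

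Whether the replicate number pairs the libraries is not stated in the sample titles. Across all tested genes the replicate differences correlated at 0.148, -0.458 and -0.255 between the groups. These values cannot settle the pairing, since each group gives a single difference and a TGF-β+2APB library stood apart by its leukocyte markers. With the replicate number as a block, 27, 26 and 10 genes were called against DMSO and in the direct comparison, and the direct calls of Cfi, C3, Hpx, Serpind1 and Afp were lost. With the TGF-β+2APB numbers exchanged, a pairing added after the data were seen, the counts were 28, 27 and 16.

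Direct fold changes that changed sign were those of genes that passed the test in neither setting. Fgg, at -0.01, was 0.021 by DESeq2, 0.008 with RLE scaling, 0.131 with the block and 0.053 with the exchanged block, and ran from -0.951 without replicate 2 to 4.621 without replicate 1 of TGF-β, and to 0.349 without replicate 1 of TGF-β+2APB. With TGF-β libraries left out, Ttr ran from -1.960 to 0.722 and Serpinf2 from -0.905 to 0.320, positive without replicate 1. With TGF-β+2APB libraries left out, Hp ran from -2.265 to 1.703, F10 from -0.748 to 4.625 and Tff3 from 0.000 to 5.986, lowest without replicate 2. Apoc1 and Kng1, with at most 2 counts in any treated library, were given no fold change between the treated groups.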
